A study of Arabidopsis thaliana with 15 samples.

Results

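The circadian clock genes described here are 10 core clock loci of Arabidopsis thaliana, chosen by locus identifier from the 33602 genes of the deposited table: LHY (AT1G01060), CCA1 (AT2G46830), RVE8 (AT3G09600), PRR9 (AT2G46790), PRR7 (AT5G02810), PRR5 (AT5G24470), GI (AT1G22770), TOC1 (AT5G61380), ELF4 (AT2G40080) and LUX (AT3G46640, PCL1 in RefSeq). Their transcripts were counted by RNA sequencing in 15 samples of hypocotyl explants of the wild-type ecotype Col-0, with 3 samples in each of 5 groups and about 100 explants in a sample. In every group, seedlings were grown in the dark at 22 °C for 7 days and the middle of the hypocotyl was cut out. The 0 h group was these explants at 22 °C with no culture. The CIM groups spent 4 days on callus induction medium (kinetin at 0.1 mg/L and 2,4-D at 0.5 mg/L) in continuous light at 17 °C or at 27 °C. The SIM groups then spent 4 more days on shoot induction medium (2-iP at 0.5 mg/L and IAA at 0.15 mg/L) in continuous light, labelled with a temperature of 17 °C or 27 °C. The labels give no hour of harvest and no temperature for the callus step of the SIM groups other than that single value.

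The plant clock is a loop of transcription factors that repress one another in turn over the day. LHY and CCA1 are related MYB factors that peak around dawn and repress evening genes, while the related RVE8 activates many of the same genes. The pseudo-response regulators PRR9, PRR7, PRR5 and TOC1 follow in that order from morning to evening and repress LHY and CCA1. ELF4 and LUX, with ELF3, form the evening complex, a night-time repressor whose activity is known to fall in warmth. GI is an evening protein that steadies the F-box protein ZTL and connects the clock to flowering. In constant light these rhythms run on, so the level of a clock transcript in a single harvest depends on the phase at that hour as well as on its daily mean. The 0 h explants came from the dark and not from constant light, and how far the explants of any sample shared a phase was not measured. With no harvest hour in the labels, differences in phase, in synchrony among explants and in mean level cannot be told apart in any comparison that follows. In bulk samples, fewer cells of a type and less RNA per cell cannot be told apart either.

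Total counts ran from 3427707 to 4446863 per sample, a 1.3-fold range, and the 10 clock genes together took 2276 to 3852 counts in a sample. A single clock gene had between 24 and 716 counts in a sample, all 10 passed the filter on low counts, and none overlapped another annotated gene. Replicates were unusually close: in 10 of 15 within-group pairs the counts differed by less than sampling noise. The highest count of any gene was between 2496 and 4757 in a library. The sources used here do not say whether reads sharing a start position were counted once. If they were, replicates would look closer, and counts of high or short genes lower, than in raw reads. Replicates 1 and 2 of CIM at 17 °C had a chi-square of 0.907 per degree of freedom, while the other pairs of that group had 1.23 and 1.36, and they are counted as 1 sample in every group mean. Replicates 1 and 3 of CIM at 27 °C (0.701) are also counted as 1 sample, although the other pairs of their group were below noise too (0.724 and 0.867). The other 8 such pairs, those of the SIM groups included, were kept as separate samples, so alike libraries may be counted more than once there. Some of these were closer than either averaged pair: replicates 1 and 2 of SIM at 27 °C (0.688) and 1 and 3 of SIM at 17 °C (0.696). The tests use all 3 libraries of each group. The labels do not say that replicates came from separate cultures, so each p-value reflects the variation among these libraries alone, part or all of which may be technical. Levels are given as CPM, read counts scaled to a common library size after TMM normalization. The summed level of 11 seed maturation genes was 1244, 5.36 and 845 CPM in the 3 libraries at 0 h, so the second stood apart. The summed level of 22 photosynthesis genes was 230, 239 and 448 CPM in CIM at 17 °C, so the third stood apart. The 4 epidermal markers were all detected in every group, which does not show the organ that the tissue came from. The meristem markers WUS and CLV3 were at 0 counts at 0 h and in both CIM groups.

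Stretches of the clock promoters are shown first because the members regulate one another through short DNA motifs in them. A set of 4 motifs was searched on both strands of the 500 bases before each annotated gene start: the evening element (AAAATATCT), the CCA1-binding site (AAAAATCT), the G-box (CACGTG) and the LUX-binding site (GATACG or GATTCG). The evening element was found in 4 of 10 clock promoters (TOC1, PRR5, PRR9 and LUX) and in 4.49% of 27205 gene promoters. The G-box was found in 6 of 10 (LHY, CCA1, PRR7, PRR9, LUX and RVE8) and in 10.7% of gene promoters. The LUX-binding site was found in 4 of 10 (TOC1, PRR9, ELF4 and LUX) against 23.1%, and the CCA1-binding site in 2 of 10 (LHY and PRR9) against 12.8%. No match overlapped another, and the GI window held none of these letters. The sequences below are from the RefSeq TAIR10.1 genome, whose nuclear coordinates match the table's TAIR10, and are written 5′ to 3′ along the gene's strand. Evening elements and G-boxes are in capitals, and an evening element on the opposite strand reads AGATATTTT. Each is the motif with 30 bases on either side, a longer stretch spanning both motifs for LUX, and the last 300 bases before the gene start for PRR9.
LHY, chr1:37916-37981, minus strand: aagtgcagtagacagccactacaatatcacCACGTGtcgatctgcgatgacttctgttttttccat
CCA1, chr2:19245368-19245433, plus strand: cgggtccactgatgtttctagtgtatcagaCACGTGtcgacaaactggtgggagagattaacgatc
PRR7, chr5:642196-642261, minus strand: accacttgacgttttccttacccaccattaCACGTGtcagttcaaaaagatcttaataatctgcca
RVE8, chr3:2946220-2946285, plus strand: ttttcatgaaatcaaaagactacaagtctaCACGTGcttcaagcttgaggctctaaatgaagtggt
PRR9, chr2:19232349-19232648, plus strand: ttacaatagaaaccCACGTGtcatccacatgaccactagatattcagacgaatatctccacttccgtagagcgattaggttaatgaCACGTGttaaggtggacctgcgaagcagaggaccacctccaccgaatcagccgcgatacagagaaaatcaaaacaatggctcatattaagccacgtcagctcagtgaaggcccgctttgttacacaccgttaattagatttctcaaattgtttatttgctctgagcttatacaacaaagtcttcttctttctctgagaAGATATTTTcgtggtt
PRR5, chr5:8359224-8359292, minus strand: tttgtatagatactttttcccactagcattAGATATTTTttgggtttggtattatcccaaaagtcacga
TOC1, chr5:24674782-24674850, plus strand: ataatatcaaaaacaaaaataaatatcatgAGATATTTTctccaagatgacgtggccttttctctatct
LUX, chr3:17182819-17183027, plus strand: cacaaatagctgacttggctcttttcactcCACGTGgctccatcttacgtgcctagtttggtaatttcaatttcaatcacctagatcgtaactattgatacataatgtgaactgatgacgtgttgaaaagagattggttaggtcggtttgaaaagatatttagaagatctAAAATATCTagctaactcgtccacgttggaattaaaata

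**Figure D1:**
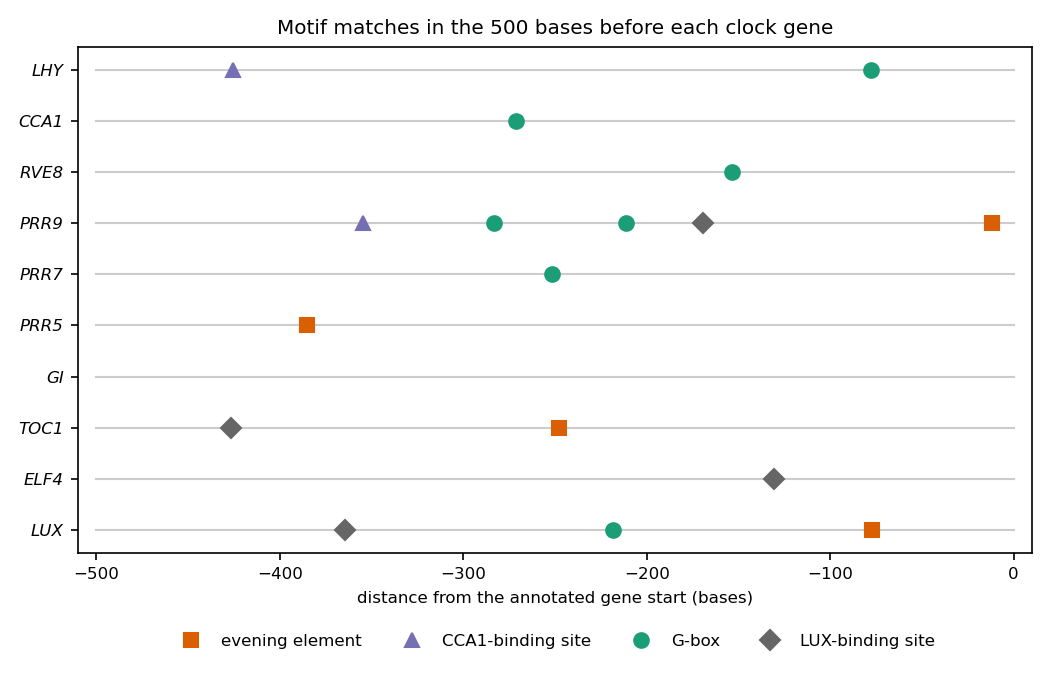
Positions of the 4 motifs in the 500 bases before the annotated start of each of the 10 clock genes; the x axis is distance in bases from the start, each row is a gene and each symbol a match. PRR9 carries 5 matches of 4 kinds, with its evening element 8 to 16 bases before the start, and GI carries none.

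LHY has its G-box 75 to 80 bases before its start and CCA1 at 269 to 274 bases, and neither window holds an evening element. PRR9 has G-boxes at 281 to 286 and at 209 to 214 bases. LUX has its evening element at 73 to 81 bases, TOC1 at 244 to 252 and PRR5 at 381 to 389. The 4 evening-element genes did not share a direction of response to temperature, as the values below show: after CIM, TOC1 and LUX were higher and PRR5 and PRR9 lower at 27 °C. A match is a run of letters and not a measured binding site.

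Levels between genes were compared as CPM per kilobase, first of gene span and then of exonic bases, since the sources used here do not say over which the reads were counted. By group mean per kilobase of span, PRR7 (50.3), TOC1 (50) and CCA1 (48.1) were the 3 highest clock transcripts at 0 h, and by exonic bases they were too (69.2, 64.4 and 59). The lowest at 0 h was PRR5 by span (9.09) and ELF4 by exonic bases (14.6). ELF4, which has no intron in the annotation, was the highest clock transcript by either length in CIM at 17 °C (51.6, with TOC1 close behind at 51 by exonic bases), SIM at 17 °C (64.5) and SIM at 27 °C (67.8 CPM per kilobase). In CIM at 27 °C the order of ELF4 (46.2 by either length) and TOC1 (44 by span, 56.6 by exonic bases) depended on the length used. PRR9 was the lowest by either length in CIM at 27 °C (5.78 by span), SIM at 17 °C (8.24) and SIM at 27 °C (4.1), and RVE8 in CIM at 17 °C (9.51).

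**Figure D2:**
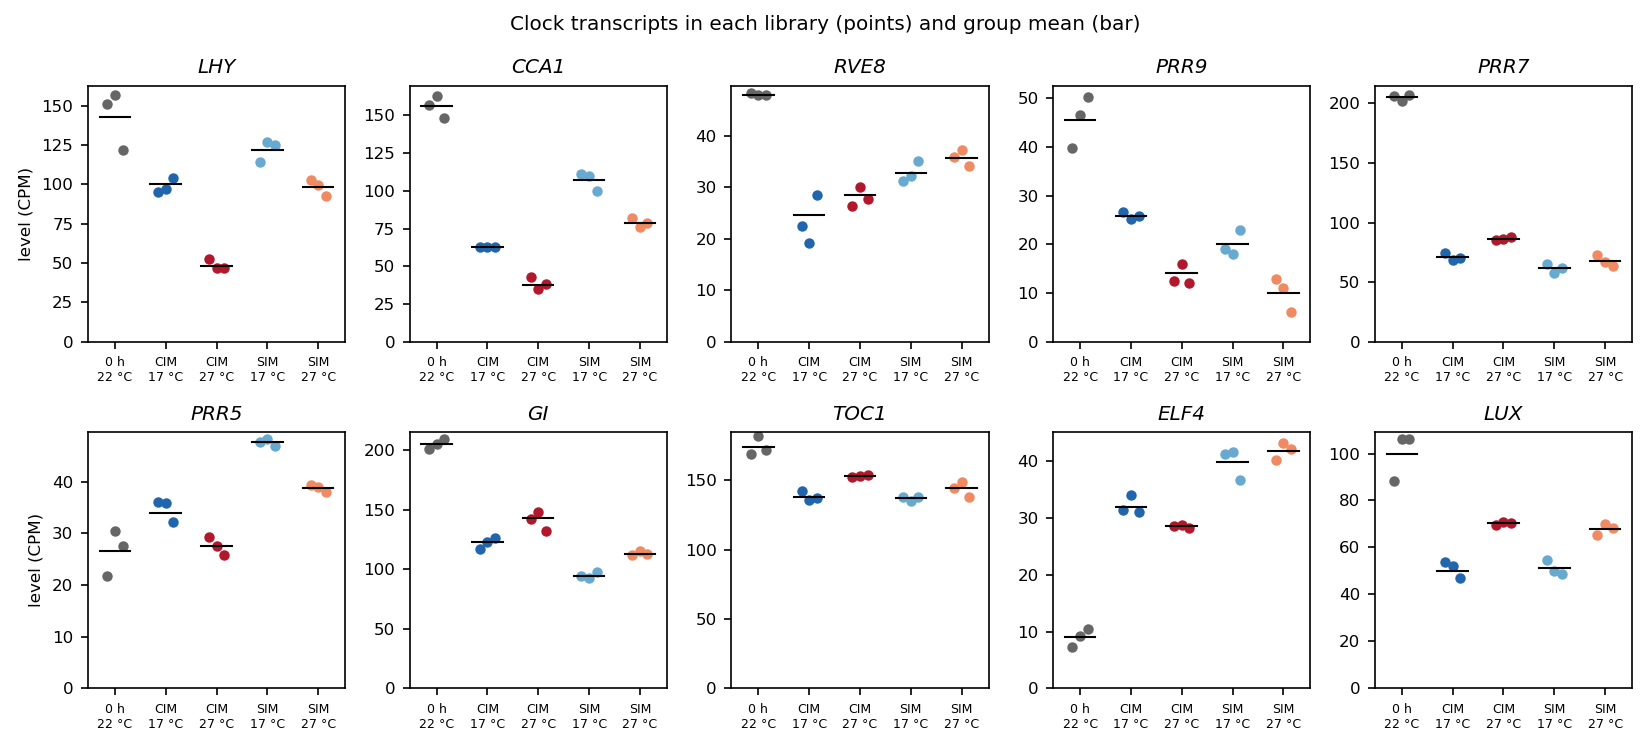
CPM of each of the 10 clock genes in each of the 15 libraries; each panel is a gene, the x axis gives the 5 groups and each point is a library. LHY, CCA1 and PRR9 lie lower at 27 °C than at 17 °C on both media, and ELF4 lies at 7.27 to 10.5 CPM at 0 h and at 28.2 or more in every cultured library.

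After 4 days on CIM, the dawn genes and the early-day gene PRR9 were the clock transcripts most reduced at 27 °C, and PRR7, GI, TOC1 and LUX were raised by less. Of the 10 clock genes, 4 were higher and 4 lower at 27 °C (edgeR quasi-likelihood test, adjusted p under 0.05), where 42.6% of the 20704 genes tested were called, 21.6% higher and 21.0% lower. The libraries of both temperatures did not overlap for 9 of the 10, and for 53.5% of all genes. The median absolute log2 fold change was 0.31 for the clock genes and 0.21 for all genes.

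LHY, the dawn repressor, had 95.4, 96.8 and 104 CPM at 17 °C and 52.5, 46.9 and 47.2 CPM at 27 °C after CIM. Every 17 °C library was above every 27 °C library, and LHY fell by 1.02 ± 0.09 (SE) on the log2 scale (edgeR adjusted p = 9.83e-08). CCA1, its partner, had 62.8, 62.9 and 62.7 CPM at 17 °C and 43.1, 34.8 and 38.1 CPM at 27 °C. Again the groups did not overlap, and CCA1 fell by 0.70 ± 0.07 (edgeR adjusted p = 1.53e-09). RVE8, the activator of the same MYB family, behaved differently, with 22.4, 19.2 and 28.5 CPM at 17 °C and 26.3, 30 and 27.7 CPM at 27 °C. Its groups overlapped through the third 17 °C library, the one with the high photosynthesis sum, and its log2 fold change of 0.26 ± 0.10 did not pass (edgeR adjusted p = 0.0586). Without that library the RVE8 log2 fold change was 0.418 (edgeR adjusted p = 0.00788), and without the second 17 °C library it was 0.113 (adjusted p = 0.518).

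Of the day-phased repressors, PRR9 had 26.7, 25.2 and 25.8 CPM at 17 °C and 12.4, 15.9 and 12.1 CPM at 27 °C after CIM. The groups were far apart, and PRR9 fell by 0.95 ± 0.15 on the log2 scale (edgeR adjusted p = 1.22e-05). PRR7, another pseudo-response regulator, went the other way, from 74.1, 69.0 and 70.0 CPM at 17 °C to 85.7, 86.2 and 87.5 CPM at 27 °C. All 3 warm libraries were above the cool ones, and PRR7 rose by 0.29 ± 0.05 (edgeR adjusted p = 6.78e-05). PRR5, which acts later in the day, had 36.0, 35.8 and 32.1 CPM at 17 °C and 29.3, 27.6 and 25.8 CPM at 27 °C. Its groups did not overlap, and PRR5 fell by 0.33 ± 0.09 (edgeR adjusted p = 0.00543).

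Among the evening genes, LUX, the DNA-binding part of the evening complex, had 53.8, 52.1 and 46.8 CPM at 17 °C and 69.6, 71.0 and 70.6 CPM at 27 °C after CIM. It was higher in every warm library and rose by 0.47 ± 0.07 on the log2 scale (edgeR adjusted p = 7.09e-07). ELF4, its small partner protein, had 31.4, 34.1 and 31.1 CPM at 17 °C and 28.6, 28.8 and 28.2 CPM at 27 °C. Although the ELF4 groups did not overlap, the log2 fold change of -0.18 ± 0.09 did not pass (edgeR adjusted p = 0.164). GI had 117, 123 and 126 CPM at 17 °C and 142, 148 and 132 CPM at 27 °C, and rose by 0.20 ± 0.04 (edgeR adjusted p = 0.000432). TOC1, the evening repressor of LHY and CCA1, had 142, 136 and 137 CPM at 17 °C and 152, 153 and 154 CPM at 27 °C. Its groups were separate by a narrow margin and TOC1 rose by 0.15 ± 0.04 (edgeR adjusted p = 0.00552), but the call was lost without the third 17 °C library (adjusted p = 0.0534) and with the DESeq2 Wald test (adjusted p = 0.0567). It was also lost with both pairs of alike CIM libraries averaged as 1 sample each (edgeR adjusted p = 0.0569), and was weakest, at 0.127, without the third 17 °C and the second 27 °C library (adjusted p = 0.0828).

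After 4 further days on SIM, LHY, CCA1, PRR9 and PRR5 were lower and LUX and GI higher at 27 °C than at 17 °C. In this comparison 2 clock genes were higher and 4 lower by the same test, against 20.7% and 22.9% of all genes, or 43.6% in either direction. The libraries of both temperatures did not overlap for 7 of 10 clock genes, and for 56.6% of all genes, and the median absolute log2 fold change was 0.28 against 0.21 for all genes.

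LHY had 114, 127 and 125 CPM at 17 °C and 103, 99.8 and 92.6 CPM at 27 °C after SIM. The gap was narrower than on CIM but without overlap, and LHY fell by 0.31 ± 0.08 on the log2 scale (edgeR adjusted p = 0.00305). CCA1 had 111, 110 and 100 CPM at 17 °C and 82.2, 75.9 and 78.8 CPM at 27 °C, and fell by 0.44 ± 0.05 (edgeR adjusted p = 2.79e-08). RVE8 overlapped between the temperatures, with 31.2, 32.2 and 35.0 CPM at 17 °C and 35.8, 37.3 and 34.1 CPM at 27 °C (log2 fold change 0.12 ± 0.09, edgeR adjusted p = 0.319).

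PRR9 had 19.1, 18.1 and 23.0 CPM at 17 °C and 12.8, 11 and 6.22 CPM at 27 °C after SIM. Its warm libraries were below the cool ones and overlapped those of CIM at 27 °C, and PRR9 fell by 1.01 ± 0.17 on the log2 scale (edgeR adjusted p = 2.92e-05). PRR5 had 47.7, 48.2 and 47.0 CPM at 17 °C and 39.4, 38.9 and 38.0 CPM at 27 °C, and fell by 0.30 ± 0.08 (edgeR adjusted p = 0.00273). PRR7 overlapped, with 65.0, 57.6 and 62.2 CPM at 17 °C and 73.2, 67 and 63.6 CPM at 27 °C, and its log2 fold change of 0.14 ± 0.06 did not pass (edgeR adjusted p = 0.104).

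LUX had 54.6, 49.8 and 48.9 CPM at 17 °C and 65.4, 70.1 and 68.2 CPM at 27 °C after SIM, and rose by 0.41 ± 0.07 on the log2 scale (edgeR adjusted p = 7.97e-06). GI had 94.0, 92.5 and 97.4 CPM at 17 °C and 112, 115 and 113 CPM at 27 °C, and rose by 0.26 ± 0.05 (edgeR adjusted p = 5.01e-05). Neither gene's groups overlapped. ELF4 did overlap, with 41.3, 41.7 and 36.7 CPM at 17 °C and 40.3, 43.3 and 42.2 CPM at 27 °C (log2 fold change 0.07 ± 0.07, edgeR adjusted p = 0.544). TOC1 had 138, 135 and 138 CPM at 17 °C and 144, 149 and 138 CPM at 27 °C, a log2 fold change of 0.07 ± 0.04 that did not pass (edgeR adjusted p = 0.222).

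**Figure D3:**
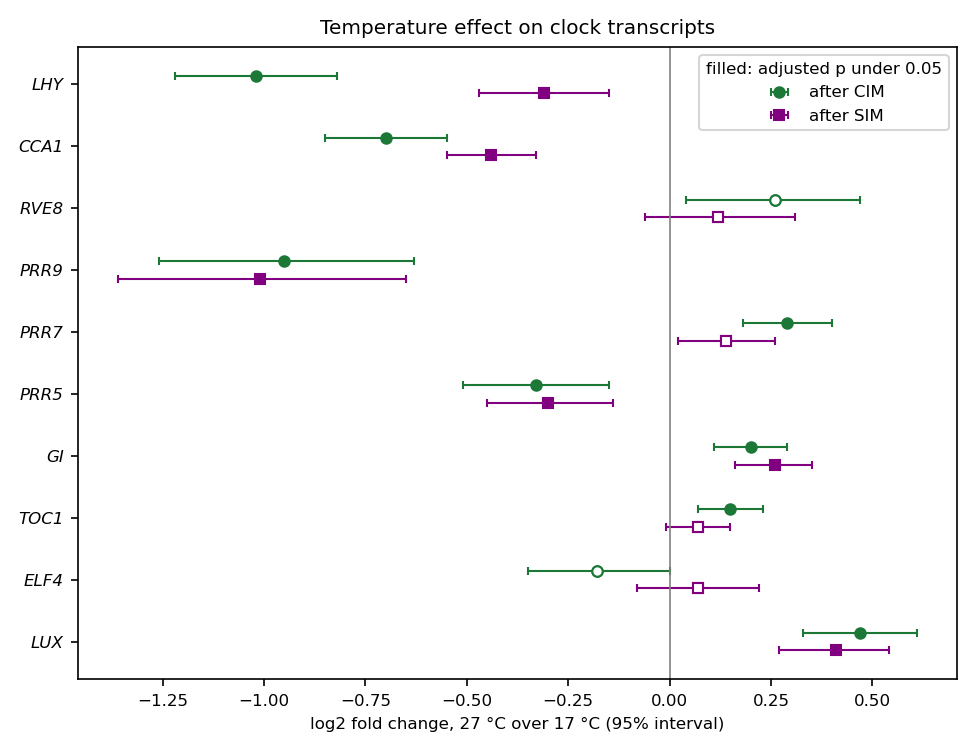
Log2 fold change of each clock gene at 27 °C over 17 °C, after CIM (circles) and after SIM (squares), with 95% intervals from the edgeR fit; filled symbols have an adjusted p under 0.05. LHY moves from -1.02 to -0.31 between the media, PRR9 is at -0.95 and -1.01, and LUX and GI lie to the right of 0 on both.

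LHY was the clock gene whose response to temperature differed between the media. The difference, after SIM minus after CIM, was 0.71 ± 0.12 on the log2 scale (edgeR interaction contrast, adjusted p = 0.000338), and LHY was the only clock gene called, 1 of 10, where 18.5% of all genes were called, 8.26% higher and 10.2% lower. CCA1 had a difference of 0.26 ± 0.09 with the same sign that did not pass (adjusted p = 0.0643), with a 95% interval from 0.07 to 0.44. That call sat at the threshold: it passed without the first library of CIM at 27 °C (difference 0.36, adjusted p = 0.0128) and under 6 other settings. For PRR9 the difference was -0.06, with an interval from -0.54 to 0.42.

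The ratio of LHY to CCA1 counts, taken within a library and so free of its depth, shifted as well. It was 0.959, 0.963 and 0.824 at 0 h, 1.52, 1.54 and 1.66 in CIM at 17 °C and 1.22, 1.35 and 1.24 in CIM at 27 °C. In SIM it was 1.02, 1.15 and 1.25 at 17 °C and 1.25, 1.31 and 1.18 at 27 °C. The temperatures were separate on CIM and overlapped on SIM, and all cultured libraries were above those at 0 h. The ratio of PRR9 to PRR7 counts was 0.361, 0.366 and 0.369 in CIM at 17 °C and 0.145, 0.184 and 0.139 at 27 °C. In SIM it was 0.295, 0.315 and 0.370 at 17 °C and 0.174, 0.164 and 0.0978 at 27 °C. At 0 h it was 0.193, 0.230 and 0.243, above every 27 °C library and below every 17 °C one. These ratios are given as values, with no test.

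**Figure D4:**
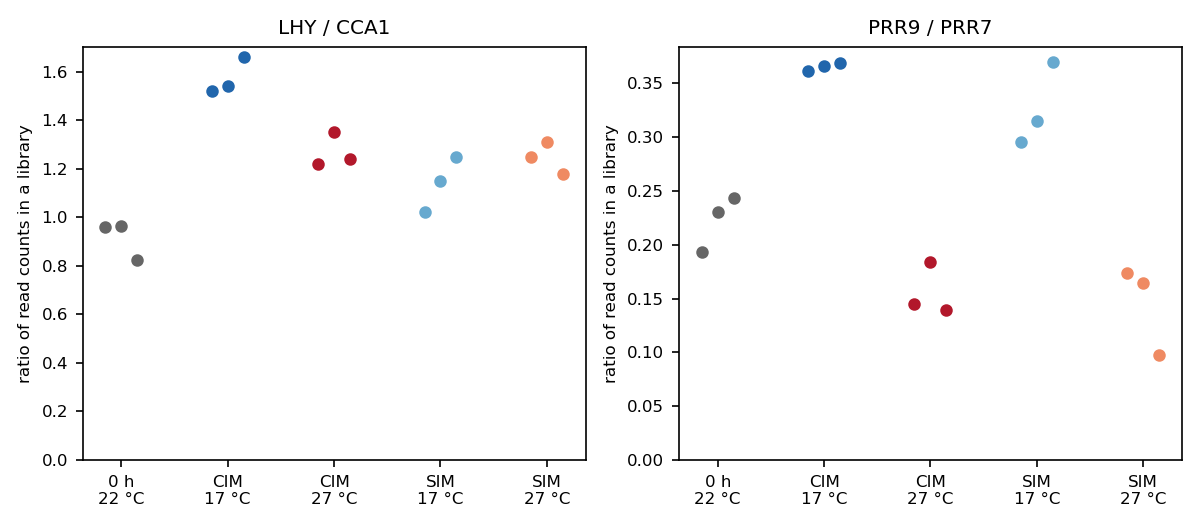
Ratio of LHY to CCA1 counts (left) and of PRR9 to PRR7 counts (right) in each of the 15 libraries; the x axis gives the 5 groups and each point is a library. LHY per CCA1 is highest in CIM at 17 °C (1.52 to 1.66), and PRR9 per PRR7 separates 17 °C from 27 °C on both media.

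Marker sums of several cell types also differed between the temperatures, but not all in the direction of the dawn genes. The summed level of 8 xylem markers was 526 to 564 CPM in CIM at 17 °C and 382 to 395 at 27 °C, 684 to 712 in SIM at 17 °C and 539 to 560 at 27 °C, and 1131 to 1198 at 0 h. No xylem marker was at 0 in any group. LHY and CCA1 were likewise highest at 0 h, lowest in CIM at 27 °C and higher at 17 °C than at 27 °C on both media. The summed level of 5 phloem markers was 109 to 132 CPM in CIM at 17 °C and 155 to 177 at 27 °C, and 416 to 438 in SIM at 17 °C and 377 to 384 at 27 °C, so it was higher at 27 °C on CIM and lower on SIM. No phloem marker was at 0 in any group. The 22 photosynthesis genes summed to 704 to 743 CPM in SIM at 17 °C and 1034 to 1089 at 27 °C, without overlap. On CIM the temperatures overlapped (230 to 448 and 267 to 306 CPM), but only through the third 17 °C library, the others being at 230 and 239 CPM. The sum of 5 shoot meristem markers was higher at 27 °C on both media. Sums of 4 epidermal markers overlapped on both media. Those of 7 root and callus markers overlapped on CIM and were 196 to 214 CPM at 17 °C and 179 to 192 at 27 °C on SIM. The part of these cells in the clock results was not tested.

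From CIM to SIM the dawn genes, RVE8, PRR5 and ELF4 rose and GI and PRR7 fell at both temperatures. At 17 °C, 5 clock genes were higher and 3 lower on SIM, against 24.7% and 23.4% of all genes (48.1% in either direction). At 27 °C, 5 were higher and 2 lower, against 24.9% and 24.8% (49.7% in either direction). The libraries of the media did not overlap for 8 of 10 clock genes at each temperature, against 57.3% of all genes at 17 °C and 60.9% at 27 °C. Medium, 4 more days in culture and the order of treatments differ together here and cannot be told apart. Markers of several cell types moved as well. The summed level of the 4 epidermal markers was 405 to 458 CPM in the CIM libraries and 82.7 to 106 in those of SIM, and that of 7 root and callus markers was 588 to 657 and 179 to 214 CPM, with no marker of either list at 0 in a CIM or SIM group. The 22 photosynthesis genes summed to 230 to 448 CPM on CIM and 704 to 1089 on SIM, where RBCS2B was at 0. Xylem and phloem sums were higher on SIM at each temperature. The part of these cells in the change of the clock genes was not tested.

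LHY rose by 0.30 ± 0.08 on the log2 scale at 17 °C (edgeR adjusted p = 0.00385) and by 1.01 ± 0.09 at 27 °C (adjusted p = 4.48e-08). Its lowest level of the series, 46.9 CPM in CIM at 27 °C, compared with 92.6 CPM or more in SIM. CCA1 rose by 0.77 ± 0.06 at 17 °C (edgeR adjusted p = 3.04e-13) and by 1.03 ± 0.07 at 27 °C (adjusted p = 8.18e-15). RVE8 rose by 0.49 ± 0.10 and 0.35 ± 0.09 (edgeR adjusted p = 0.000161 and 0.00165), and PRR5 by 0.46 ± 0.08 and 0.50 ± 0.08 (adjusted p = 8.99e-06 and 7.69e-06). ELF4 rose by 0.31 ± 0.08 and 0.56 ± 0.08 (edgeR adjusted p = 0.00558 and 3.25e-07). GI fell by 0.37 ± 0.05 at 17 °C and by 0.32 ± 0.04 at 27 °C (edgeR adjusted p = 6.87e-08 and 1.64e-07). PRR7 fell by 0.20 ± 0.06 at 17 °C (edgeR adjusted p = 0.0161) and by 0.35 ± 0.05 at 27 °C (adjusted p = 1.12e-06), and the 17 °C call was lost without the first CIM library (adjusted p = 0.0741) or the second SIM library (adjusted p = 0.0704). TOC1 and LUX did not pass at either temperature, with log2 fold changes from -0.09 to 0.01.

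PRR9 fell by 0.36 ± 0.14 on the log2 scale at 17 °C (edgeR adjusted p = 0.0368), a call at the edge of the threshold. It was lost with DESeq2 (adjusted p = 0.0639) and with the replicate number as a block (edgeR adjusted p = 0.0538). Averaging both pairs of alike CIM libraries as 1 sample each also lost it (edgeR adjusted p = 0.0899). So did leaving out the third 17 °C and the second 27 °C library of CIM (adjusted p = 0.0545), or any one of 5 of the 6 libraries compared (adjusted p from 0.0652 to 0.117). The call stood without the third SIM library. At 27 °C the PRR9 log2 fold change was -0.42 ± 0.19 and did not pass (edgeR adjusted p = 0.0679), but it was -0.634 and passed without the first SIM library (adjusted p = 0.0125) and was -0.163 without the third (adjusted p = 0.484).

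Against the dark-grown explants at 0 h, most clock transcripts were lower in every cultured group, and ELF4 was higher. Light, hormones, temperature, time since cutting and age all differ from 0 h and cannot be told apart, and the 4 comparisons share the 0 h libraries. In CIM at 17 °C, 2 clock genes were higher and 8 lower, against 37.7% and 39.5% of all genes (77.2% in either direction). In CIM at 27 °C, 1 was higher and 8 lower, against 39.5% and 40.4% (79.8%). In SIM at 17 °C, 2 were higher and 8 lower, against 38.8% and 37.8% (76.5%), and in SIM at 27 °C, 2 and 8, against 38.5% and 39.9% (78.4%). The libraries did not overlap those at 0 h for 10, 9, 9 and 10 of the 10 clock genes in these groups, against 79.4%, 83.0%, 79.6% and 81.5% of all genes. The median log2 fold change of the 10 clock genes ran from -0.78 to -0.54 over the 4 comparisons, against -0.01 to 0.03 for all genes. Cell type markers differed from 0 h as well, beside the xylem sums given above. The 5 phloem markers summed to 419 to 482 CPM at 0 h, 109 to 177 on CIM and 377 to 438 on SIM, and the 7 root and callus markers to 318 to 328, 588 to 657 and 179 to 214 CPM. The 4 epidermal markers summed to 407 to 423 CPM at 0 h, within the range on CIM and above that on SIM, and none of these 3 lists had a marker at 0. The 11 seed maturation genes, high in 2 of the 3 libraries at 0 h, summed to 0.872 CPM or less in every cultured library, with 8 or 9 of them at 0 in each cultured group. The 22 photosynthesis genes summed to 353 to 386 CPM at 0 h, below the range on SIM. These sums lay within the range on CIM only through the third library of CIM at 17 °C (448 CPM), the other CIM libraries being at 230 to 306 CPM. The part of these cells in the differences from 0 h was not tested.

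ELF4 had 7.27, 9.23 and 10.5 CPM at 0 h (9.01 ± 1.64, SD, n = 3), while no cultured library had under 28.2 CPM. It rose by 1.83 ± 0.12 on the log2 scale in CIM at 17 °C (edgeR adjusted p = 3.88e-15) and by 2.21 ± 0.11 in SIM at 27 °C (adjusted p = 2.37e-18). The summed level of 5 shoot meristem markers was 0 to 1.17 CPM at 0 h, 23.4 to 37.8 and 49.3 to 57.2 CPM in CIM at 17 °C and 27 °C, and 57.9 to 60.9 and 128 to 131 CPM in SIM. Like ELF4, this sum was higher in every cultured group than at 0 h. The sum was also higher at 27 °C than at 17 °C on both media. ELF4 was not called between the temperatures on either medium (edgeR adjusted p = 0.164 on CIM and 0.544 on SIM). WUS and CLV3 were at 0 at 0 h and in both CIM groups, STM was also at 0 in CIM at 27 °C, and the part of these cells in the ELF4 level was not tested.

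PRR5 had 21.8, 30.4 and 27.5 CPM at 0 h. It rose by 0.38 ± 0.10 on the log2 scale in CIM at 17 °C, 0.84 ± 0.09 in SIM at 17 °C and 0.54 ± 0.09 in SIM at 27 °C (edgeR adjusted p = 0.00125, 2.83e-10 and 2.45e-06). CIM at 27 °C overlapped 0 h for PRR5, with a log2 fold change of 0.05 ± 0.10 (edgeR adjusted p = 0.707).

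PRR7 had 206, 202 and 207 CPM at 0 h, tight values far above any cultured library, of which the highest had 87.5 CPM. Its log2 fold changes ran from -1.73 ± 0.05 to -1.25 ± 0.04 over the 4 cultured groups (highest edgeR adjusted p = 4.82e-23). PRR9 had 39.7, 46.5 and 50.3 CPM at 0 h and fell by 0.81 ± 0.12 in CIM at 17 °C and by 2.18 ± 0.15 in SIM at 27 °C (edgeR adjusted p = 8.90e-07 and 2.58e-13). GI had 201, 205 and 209 CPM at 0 h and fell by 0.54 ± 0.04 in CIM at 27 °C and by 1.11 ± 0.04 in SIM at 17 °C (edgeR adjusted p = 3.17e-14 and 3.07e-21). Both genes were above all their cultured libraries at 0 h. TOC1, with 169, 182 and 172 CPM at 0 h, had log2 fold changes from -0.35 ± 0.04 to -0.18 ± 0.04 (highest edgeR adjusted p = 0.000153). LUX, with 88.4, 106 and 106 CPM at 0 h, fell by 0.98 ± 0.07 and 0.97 ± 0.07 at 17 °C and by 0.51 ± 0.06 and 0.56 ± 0.06 at 27 °C on CIM and SIM (highest edgeR adjusted p = 2.51e-09).

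CCA1 had 157, 163 and 148 CPM at 0 h (156 ± 7.34, SD, n = 3), above every cultured library. It fell by 2.01 ± 0.06 on the log2 scale in CIM at 27 °C (edgeR adjusted p = 1.18e-24), and by 0.54 ± 0.05 in SIM at 17 °C (adjusted p = 6.62e-12). LHY had 151, 157 and 122 CPM at 0 h (143 ± 18.5, SD, n = 3), with the third library lowest. It fell by 1.55 ± 0.09 in CIM at 27 °C (edgeR adjusted p = 1.91e-11). In SIM at 17 °C its libraries overlapped those at 0 h and the fall of 0.23 ± 0.07 (edgeR adjusted p = 0.00862) was lost when only the 6 libraries compared were fitted (adjusted p = 0.0507). It was also lost without the first 0 h library (-0.175, adjusted p = 0.0563), the second (-0.14, adjusted p = 0.0711) or the first SIM library (-0.17, adjusted p = 0.0575). RVE8 had 48.2, 48.0 and 48.0 CPM at 0 h, above every cultured library, and fell by 1.04 ± 0.10 in CIM at 17 °C and by 0.43 ± 0.09 in SIM at 27 °C (edgeR adjusted p = 1.78e-11 and 3.65e-05).

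**Figure D5:**
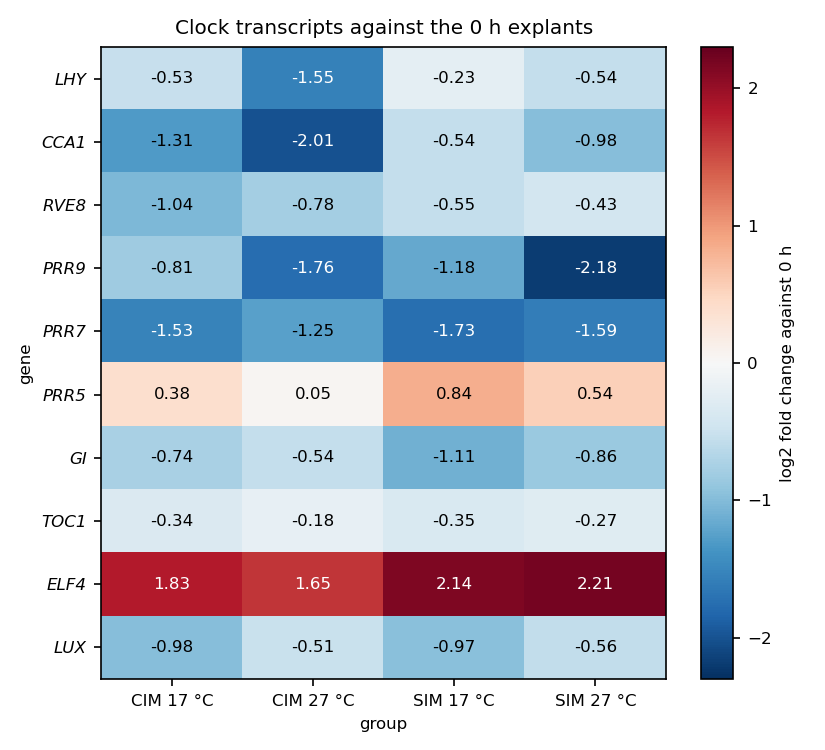
Heat map of the log2 fold change of each clock gene against 0 h in the 4 cultured groups, from the edgeR fit. Each row is a gene, each column a group, and the value is printed in each cell. ELF4 lies at 1.65 to 2.21 in all 4 groups, and PRR7 at -1.73 to -1.25; LHY and CCA1 are lowest in CIM at 27 °C.

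Over the 5 groups the members fell into different orders. CCA1 and GI had 5 levels with no overlap between neighbours: CCA1 fell in the order 0 h, SIM at 17 °C, SIM at 27 °C, CIM at 17 °C and CIM at 27 °C, and GI in the order 0 h, CIM at 27 °C, CIM at 17 °C, SIM at 27 °C and SIM at 17 °C. LHY was highest at 0 h and lowest in CIM at 27 °C, but 0 h overlapped SIM at 17 °C, and CIM at 17 °C overlapped SIM at 27 °C. LUX and RVE8 had 0 h highest, then overlapping pairs: for LUX both 27 °C groups above both 17 °C groups, for RVE8 both SIM groups above both CIM groups. By root mean square distance between centred log2 group means, the closest members were GI and LUX (0.174), LUX and RVE8 (0.228), LUX and TOC1 (0.235) and LHY and CCA1 (0.252), and the farthest were ELF4 and PRR9 (1.47).

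Outside the 10 core genes, 4 lists of related genes are given by their counts, each beside the share of all genes called. Of 28 other clock components, 27 passed the filter. At 27 °C after CIM, 10 were higher and 3 lower (median log2 fold change 0.15, against 0.02 for all genes), where 42.6% of all genes were called, and after SIM 8 were higher and 6 lower (median 0.06, against -0.00474), where 43.6% were. BOA, a close relative of LUX, had 26.5, 30.8 and 22.4 CPM at 17 °C and 38.3, 45.2 and 44.9 CPM at 27 °C after CIM, and rose by 0.69 ± 0.09 on the log2 scale (edgeR adjusted p = 3.15e-07). After SIM it rose by 0.82 ± 0.10 (edgeR adjusted p = 6.29e-08), so LUX and BOA were both higher at 27 °C on both media. ELF3, the third evening complex subunit and a known sensor of warmth, fell by 0.28 ± 0.04 after SIM (edgeR adjusted p = 1.87e-07) and by 0.20 ± 0.04 after CIM (adjusted p = 0.000145). LNK1 and LNK3, partners of RVE8, parted after CIM: LNK1 rose by 0.35 ± 0.05 and LNK3 fell by 1.00 ± 0.16 (edgeR adjusted p = 3.17e-06 and 2.61e-06). After SIM, LNK3 fell by 0.63 ± 0.19 (edgeR adjusted p = 0.00648). That call was lost without the first 17 °C library (adjusted p = 0.0763) or the third 27 °C library (adjusted p = 0.0552). LNK1 had a log2 fold change of 0.12 ± 0.06 after SIM (edgeR adjusted p = 0.108). Neither difference between the media passed (interaction contrast, adjusted p = 0.411 for LNK3 and 0.0507 for LNK1).

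JMJD5, a clock-associated histone demethylase, rose by 0.49 ± 0.08 on the log2 scale at 27 °C after CIM and by 1.00 ± 0.08 after SIM (edgeR adjusted p = 5.47e-06 and 1.40e-11). The effects differed by 0.51 ± 0.12 (edgeR interaction contrast, adjusted p = 0.00202). RVE2, a relative of RVE8, had 73.7, 76.3 and 75.4 CPM at 17 °C and 56.4, 55.3 and 45.8 CPM at 27 °C after SIM and fell by 0.51 ± 0.07 (edgeR adjusted p = 7.99e-08), while after CIM its log2 fold change was 0.02 ± 0.08 (adjusted p = 0.888). The effects differed by -0.53 ± 0.10 (edgeR interaction contrast, adjusted p = 0.000146).

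All 14 clock output genes passed the filter, with 1 higher and 5 lower at 27 °C after CIM (median -0.03), beside 42.6% of all genes, and 2 higher and 3 lower after SIM (median 0.05), beside 43.6%. The CDF genes, repressors of flowering whose proteins GI and FKF1 remove, made up most of those named here. CDF2 fell by 0.37 ± 0.07 on the log2 scale after CIM and by 0.93 ± 0.08 after SIM (edgeR adjusted p = 4.35e-05 and 1.36e-11), a difference of -0.56 ± 0.11 between the media (interaction contrast, adjusted p = 0.000136). CDF3 fell by 0.44 ± 0.10 and 0.42 ± 0.07 (edgeR adjusted p = 0.000597 and 9.06e-06). CDF5 fell by 2.94 ± 0.47 after CIM (edgeR adjusted p = 1.49e-05), with 72 counts over the 17 °C libraries and 10 over the 27 °C ones. After SIM CDF5 had 12 and 2 counts and its log2 fold change of -2.48 ± 1.02 did not pass (edgeR adjusted p = 0.0525), with -1.78 (adjusted p = 0.261) without the second 17 °C library. CDF1 fell by 1.95 ± 0.54 after SIM (edgeR adjusted p = 0.00361), from 1.89, 1.89 and 2.69 CPM at 17 °C to 0.448, 0.234 and 0.921 CPM at 27 °C. After CIM CDF1 fell by 1.58 ± 0.52 (edgeR adjusted p = 0.0135), with 25 counts over the 17 °C libraries and 9 over the 27 °C ones. BBX18, a B-box protein gene, rose by 0.89 ± 0.19 and 0.76 ± 0.17 (edgeR adjusted p = 0.000297 and 0.000325).

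All 10 light input genes passed the filter, with 3 higher and 2 lower at 27 °C after CIM (median 0.03), beside 42.6% of all genes, and 3 higher and 1 lower after SIM (median 0.07), beside 43.6%. SPA1, a partner of the light-signalling repressor COP1, fell by 0.33 ± 0.04 and 0.24 ± 0.04 on the log2 scale (edgeR adjusted p = 6.33e-08 and 8.80e-06). PHYB, the red-light receptor that also senses warmth, fell by 0.20 ± 0.04 after CIM (edgeR adjusted p = 9.71e-05) and had a log2 fold change of -0.07 ± 0.04 after SIM (adjusted p = 0.172). FAR1, a transcription factor of phytochrome signalling, rose by 0.26 ± 0.06 after CIM (edgeR adjusted p = 0.000329), and its relative FHY3 by 0.18 ± 0.04 after SIM (adjusted p = 0.00114). DET1, a repressor of light responses, rose by 0.23 ± 0.06 and 0.17 ± 0.06 (edgeR adjusted p = 0.00481 and 0.0398), and CRY1, a blue-light receptor, by 0.14 ± 0.05 after SIM (adjusted p = 0.042). The DET1 and CRY1 calls after SIM were lost with DESeq2 (adjusted p = 0.133 and 0.102), and the DET1 call after CIM likewise (adjusted p = 0.053). The CRY1 call was also lost without any one of the 6 SIM libraries (edgeR adjusted p from 0.0519 to 0.171). DET1 after SIM was at 0.109 without the third 17 °C library and 0.104 without the third 27 °C library (edgeR adjusted p = 0.285 and 0.316), and its call after CIM was lost without the third 17 °C library (adjusted p = 0.0505). FAR1 was at 0.169 without the third 17 °C and the second 27 °C library of CIM (edgeR adjusted p = 0.0866). With DESeq2, 1 light input gene was higher and 2 lower after CIM, and 1 and 1 after SIM.

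Of 9 temperature-linked genes, 6 passed the filter, of which 0 were called after CIM, and 3 were higher and 2 lower at 27 °C after SIM (medians 0.19 and 0.43), beside 42.6% and 43.6% of all genes. After CIM, 2 had an unadjusted edgeR p under 0.05, and DESeq2 also called 0. PIF5, a growth-promoting factor that the evening complex represses at night, had 5.91, 3.79 and 8.32 CPM at 17 °C and 30.7, 25.8 and 26.5 CPM at 27 °C after SIM. The groups were far apart and PIF5 rose by 2.18 ± 0.20 on the log2 scale (edgeR adjusted p = 3.59e-09), while after CIM it was at 3.14 CPM or less in every library. Its effects differed by 3.07 ± 0.72 (edgeR interaction contrast, adjusted p = 0.00319), with 17 and 10 counts behind the CIM groups. Of those 17 counts, 13 came from the third CIM library at 17 °C, and without it PIF5 had a difference of 1.68 ± 0.92 that did not pass (edgeR adjusted p = 0.283). HSFB2B, a repressor of PRR7, rose by 0.30 ± 0.07 and COR27, a cold-regulated clock repressor, by 0.57 ± 0.15 after SIM (edgeR adjusted p = 0.00153 and 0.00282). After CIM their log2 fold changes were 0.14 ± 0.07 and 0.45 ± 0.22 (edgeR adjusted p = 0.167 and 0.0956), and the differences between the media, 0.16 ± 0.11 and 0.12 ± 0.27, did not pass (adjusted p = 0.447 and 0.848). CBF2, a cold-response regulator with near-identical neighbours whose reads may be shared, had 10 counts over the SIM libraries at 17 °C and 0 at 27 °C, at least 3.63-fold lower when 3 counts for the whole group are taken as the floor; the CBF2 difference between the media did not pass (edgeR adjusted p = 0.0673).

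The genes whose pattern over the 5 groups was most like that of 4 members were found among the 5055 genes that averaged 10 CPM or more and whose log2 group means had an SD of 0.5 or more. The measure was the root mean square distance between centred log2 group means, and no test goes with it. For LHY they were AFP3 (distance 0.0774), AT3G14170 (0.124) and MYB46 (0.125). AFP3 had means over 3 libraries of 78.6 CPM at 0 h, 47.4 and 27.2 in CIM at 17 °C and 27 °C, and 64.4 and 53.0 in SIM. For CCA1 they were GulLO6 (0.0703), VSR6 (0.0797) and BEL10 (0.080). For GI they were AT3G57320 (0.103), AT1G53785 (0.105) and FIS1B (0.113). For TOC1 they were AT3G57320 (0.326), CYP705A18 (0.333) and AT1G05840 (0.335). The log2 group means of TOC1 and GI had SDs of 0.142 and 0.418, below the 0.5 required of the genes searched, so genes with as narrow a range were not among them.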

How the data were processed

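RNA was measured by stranded mRNA sequencing, per the labels' protocols. The authors deposited 1 coverage table of annotated genes for 15 libraries, and its values were assumed to be raw read counts per gene. That assumption was not tested. The submitters' processing notes name FastQC 0.11.7, Bowtie2 2.3.4.3, SAMtools 1.9, bedtools 2.26.0 and TAIR10, with no role or order. Use of strand, exon or whole-gene counting, and handling of duplicates and of reads shared by paralogs are not given in the sources used here. Groups and replicate numbers came from the labels.

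All 15 libraries were fitted together with edgeR 4.0.16 in R 4.3.3: filterByExpr kept 20704 genes, scaling was TMM, and quasi-likelihood tests were adjusted by Benjamini-Hochberg over all genes tested in each of 9 comparisons, with a call at an adjusted p under 0.05. A fold change is on edgeR's log2 scale, and its SE is the log2 fold change over the square root of F. CPM used TMM-scaled library sizes, and coordinates are 1-based. The fit was also run on simulated counts for the CIM temperature comparison alone. Those counts had more spread between replicates than these data, whose common dispersion was 9.77e-05, so the run does not give the error rate here. Total counts of 3427707 to 4446863 set the precision. Replicate numbers were not used as pairs.

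The members and the lists of related genes were chosen with earlier results of these data known. Named genes outside the members are, for each of 4 lists and each temperature comparison, the called genes with the smallest adjusted p, at most 4, and the 3 genes most alike in pattern to LHY, CCA1, GI and TOC1. Alternatives were DESeq2 1.42.0 (test and size factors), no filter, a minimum mean of 5 CPM, a replicate block and the compared libraries alone. Others were each library left out, 2 CIM libraries left out, and a correction as if each start position were counted once. CIM libraries were also merged in the pairs named above, and 1 such merge was chosen after seeing the data.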

Additional observations from a re-analysis of the deposited data

Results flagged for a closer look

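The 6 results below are given because the temperature effect after SIM differed from that after CIM by a test of the difference itself (edgeR interaction contrast, 27 °C over 17 °C, SIM minus CIM, log2 scale). LHY differed by 0.71 (95% interval 0.45 to 0.97): it was lower at 27 °C than at 17 °C in all libraries of both media, by more on CIM; its adjusted p ran from 1.91e-08 to 0.00839 over all alternatives. JMJD5 differed by 0.51 and FHY3 by 0.19, both with a higher effect of warmth on SIM, and the FHY3 adjusted p of 0.0372 was close to the threshold, with no light input gene called by DESeq2 in this contrast. The FHY3 call was lost without any one of 5 libraries (adjusted p from 0.0536 to 0.0874). PIF5 differed by 3.07, on 10 to 17 counts per CIM group, 13 of the 17 from the third library of CIM at 17 °C; without that library the difference was 1.68 (adjusted p = 0.283), and without it and the second library of CIM at 27 °C 1.66 (adjusted p = 0.325). RVE2 differed by -0.53 and CDF2 by -0.56, both lower at 27 °C after SIM. The JMJD5, RVE2 and CDF2 calls stood under every alternative, with highest adjusted p of 0.0198, 0.00345 and 0.0033. No explanation for these differences was tested.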

How the results depend on the processing

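Each member's log2 fold change was recomputed under up to 25 settings, 1500 values in all: 1451 kept their direction and their side of the threshold, 19 lost a call, 12 gained one and 18 changed sign, the last all in values that were called in neither fit. The number of clock genes whose temperature effect differed between media was 1 and became 2, with CCA1 added, with DESeq2 size factors, with replicates 1 and 3 of CIM at 27 °C merged and with counts corrected for positions counted once, and ran from 1 to 2 when single libraries were left out; the cause was not tested. Other numbers of called clock genes stayed within 1.5 times. The sign changes were as follows. LUX in SIM against CIM at 17 °C was -0.00598 with DESeq2 size factors, -0.00843 with the DESeq2 test, -8.7e-07 with no filter, -0.0026 with the CIM at 27 °C merge, -0.00189 with counts corrected for positions, -0.0619 with 2 CIM libraries left out, and -0.062 to 0.0487 with single libraries left out. With those 2 CIM libraries left out, the difference between media was 0.0911 for PRR9 and 0.0204 for LUX; with single libraries left out it ran from -0.257 to 0.212 and from -0.102 to 0.014. Single libraries left out also gave -0.00135 to 0.106 for ELF4 at 27 °C after SIM, -0.0668 to 0.163 for PRR5 in CIM at 27 °C against 0 h, and -0.0326 to 0.00522 for TOC1 in SIM against CIM at 17 °C. Same-numbered samples did not deviate together (correlations from -0.248 to 0.126 over 30 pairs, against -0.117 to 0.219 for other numbers), and the replicate block left 8, 6 and 1 clock genes called in the temperature comparisons and their difference, as without it; with it 7 rather than 8 were called in SIM against CIM at 17 °C. Counts of 24 to 716 per clock gene and library limit how small a change could be detected.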
